A study of Homo sapiens with 9 samples.

Results

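The 9 genes described here encode the enzymes PGLS, PGD, RPIA, RPE, TKT and TALDO1 of the pentose phosphate pathway, and ME1, IDH1 and MTHFD2, dehydrogenases that can make NADPH by other routes. They were taken as a list of gene symbols under a rule with no threshold on measured values, though earlier results of these data were known, and all 9 were among the 26621 genes to which the deposited counts could be assigned. Counts were read in human cell lines labelled wild type (WT): HEK293T, a transformed embryonic kidney line, and A549, a lung carcinoma line of epithelial type. Both lines were untreated, and HEK293T grew in DMEM with high glucose whereas A549 grew in F-12K, so line and medium cannot be told apart. Total RNA was copied from oligo(dT) primers that carry an adaptor, in a library method named CLT-seq. The primers T12, T18 and T30 end in a plain run of 12, 18 or 30 T and are called unanchored. The primers T18V, T18VN and T18VNN add 1, 2 or 3 bases to 18 T, the first of which is not T, and are called anchored.

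Of 9 libraries, 7 had gene counts: HEK293T with each of the 6 primers (T12 from biological replicate 1) and A549 with T12 (biological replicate 2). The other 2 held only poly(T) lengths and enter no comparison. Each combination of line and primer therefore had 1 library. Library totals ran from 7491993 to 25578543 reads, and 1498149 (A549) to 5200086 (HEK293T T18) reads fell on genes. The share of reads on genes was 11.7 to 37.5% in HEK293T and 13.5% in A549. Levels are given as CPM, reads scaled to a common total of reads on genes, and 3 reads, the detection floor, equal 0.577 CPM in the deepest library and 2.00 CPM in A549. Of 10 markers of A549 and lung epithelium, 5 were at least 2-fold higher in A549, KRT8, KRT18 and CDH1 among them, and the list summed to 2520 CPM in A549 against 19.4 to 36.2 CPM in HEK293T. The surfactant genes SFTPB and SFTPC and the alveolar protease NAPSA were at 0 reads in every library, and EPCAM and NKX2-1 were at 0 in A549, though NKX2-1 gave 3.16 to 11.7 CPM in HEK293T. Of 7 markers of HEK293T and kidney or neural-like cells 4 were lower in A549, with the neurofilament genes NEFM and NEFL at 0 there, and 2, CDH2 and VIM, were higher. That list summed to 473 CPM in A549 against 1266 to 2289 CPM in HEK293T. Markers of leukocytes, fibroblasts and endothelium summed to 50.1 CPM in A549 and 9.80 to 31.7 CPM in HEK293T, with PECAM1, VWF and CD3E at 0 throughout. In RNA from whole cultures, fewer cells that express a gene and less RNA in each cell cannot be told apart.

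The pentose phosphate pathway takes glucose 6-phosphate out of glycolysis. Its oxidative branch makes NADPH and ribulose 5-phosphate, and its nonoxidative branch turns that sugar into ribose 5-phosphate for nucleotides or back into intermediates of glycolysis. NADPH supplies electrons for the synthesis of lipids and deoxynucleotides and keeps glutathione and thioredoxin reduced. Malic enzyme, the cytosolic isocitrate dehydrogenase and folate dehydrogenases are further sources of NADPH or NADH. Several of these genes, PGD, TKT, TALDO1, ME1 and IDH1 among them, are known targets of NRF2, a factor that binds antioxidant response elements, and A549 is widely used as a line in which NRF2 is constitutively active. None of this background was tested here.

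The core of the antioxidant response element, TGACNNNGC, was searched on both strands in the RefSeq promoters of GRCh38.p14, each a window of 300 bases from 250 before to 50 after the transcription start. It occurred in 4687 of 35116 promoters (13.3%). All 9 genes had a promoter entry, IDH1 having 2, of which 1 held no match. Of the 9 genes 5 held a match. In 4 of them a match lay before the start. These are printed 5′ to 3′ on the strand of the gene, with the matched bases in capitals, a choice made with the levels below known. These 4 genes were among the 6 that were at least 2-fold higher in A549 in the comparison that follows. Of all genes compared there 31.0% were. MTHFD2, whose match lies after the start, stayed under 2-fold. The share of 13.3% counts matches anywhere in the window, so it is no reference for matches before the start. The others of the 6, TKT and PGLS, have no match. RPE and PGLS came under 2-fold when libraries were scaled by their totals. Any part of the matches in these levels was not tested.

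ME1 promoter, chr6:83431169-83431198, minus strand: tctcctgccaTGACTCAGCgcttctcgcag
IDH1 promoter, chr2:208255195-208255224, minus strand: cccctctcgcTGACTCCGCccatcccacgg
RPE promoter, chr2:210002477-210002506, plus strand: ggcggacggcTGACAGCGCcccaccccagg
PGD promoter, chr1:10398853-10398882, plus strand: cctcgccgggGCAATGTCAtctaggtgctc

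The matches begin 137 (ME1), 143 (IDH1), 151 (RPE) and 201 (PGD) bases upstream of the start, and that of PGD reads in the opposite direction. MTHFD2 had a match only after its start. PGLS, RPIA, TALDO1 and TKT had none in this window, which says only that these letters are not there. The C/EBP-ATF core TGATGNAA, searched the same way, was in none of the 9 and in 3.62% of all promoters.

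Since oligo(dT) can also prime on runs of A inside a transcript, the longest such run was found in the GENCODE 29 transcript of each gene, leaving out the last 30 bases. The median over 18135 transcripts was 6, and 9.81% held a run of at least 12. The transcripts searched differ in length from the counted entries: 1885 against 2340 bases for PGD, 2569 against 3322 for RPE and 4456 against 2188 for MTHFD2. Runs in bases that were not searched would be missed. Among the 9 transcripts searched only RPIA and ME1 stood above 7. RPIA had 12 A that end 566 bases before the 3′ end, and ME1 had 11 A that end 1138 bases before it. Their runs are shown with the A in capitals, as the candidates for internal priming, which the counts cannot tell from priming at the tail.

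RPIA transcript: atatttaccAAAAAAAAAAAAtgaggtaaa
ME1 transcript: ctacttttcAAAAAAAAAAAgctagaaatg

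The question of the cell line comparison is which of the 9 genes differ between A549 and HEK293T copied from the same primer. In the A549 library 6 of the 9 were at least 2-fold above HEK293T T12 (IDH1, PGD, TKT, ME1, PGLS and RPE), RPIA was lower, and TALDO1 and MTHFD2 stayed under 2-fold. The measure, a ratio of CPM + 1, asks for 20 or more reads in the higher of both libraries. Of the 10143 genes that had them 60.2% were past 2-fold, 31.0% higher and 29.2% lower. With 1 library per line there is no test, and the 95% intervals below are exact binomial intervals that cover counting error only. The other 5 HEK293T libraries give a second reference: IDH1, PGD, TKT, ME1 and RPE lay above all 6 HEK293T libraries (33.8% of all genes did) and RPIA below all 6 (28.8% of all genes did). The median log2 ratio was 1.34 for the 9 genes and 0.02 for all genes.

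**Figure D1:**
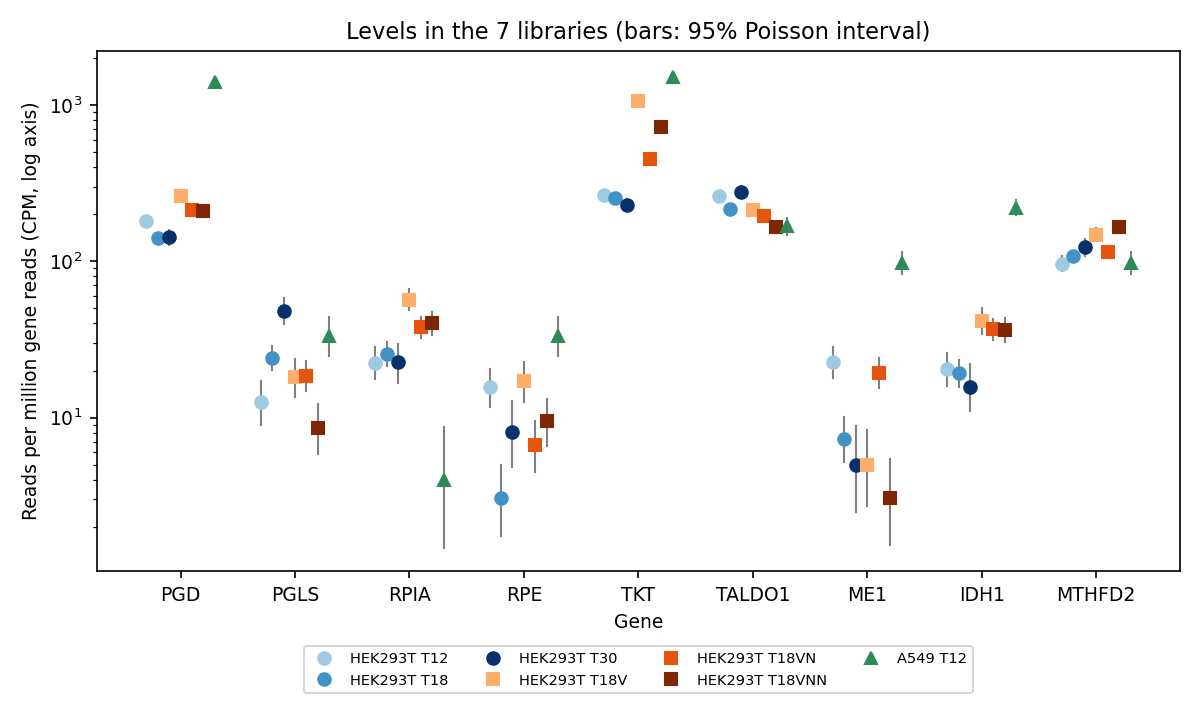
Level of each of the 9 genes in the 7 libraries, in CPM on a log axis, with 95% Poisson intervals as bars. The A549 triangles stand above all HEK293T symbols for PGD, TKT, RPE, ME1 and IDH1, below them for RPIA, and among them for PGLS, TALDO1 and MTHFD2.

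PGLS, which hydrolyses the lactone formed in the oxidative branch, lies at chr19:17622432-17632097 (hg19, plus strand). It held 31 to 126 reads in HEK293T, or 12.6 CPM with T12, 24.2 with T18 and 48.3 with T30, then 18.1 with T18V, 18.5 with T18VN and 8.62 with T18VNN. A549 held 50 reads, or 33.4 CPM, 2.66-fold the T12 level (95% interval 1.72 to 4.12). That value was under the T30 library, so it fell inside the HEK293T range, and it was 1.82-fold the HEK293T median, under the threshold.

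PGD, which oxidises 6-phosphogluconate and forms NADPH and ribulose 5-phosphate, lies at chr1:10459049-10480568 (hg19, plus strand). Its level was 181 CPM with T12, 142 with T18 and 143 with T30, then 261 with T18V, 212 with T18VN and 211 with T18VNN, and 1408 CPM in A549. The A549 library was 7.79-fold above HEK293T T12 (95% interval 7.11 to 8.55) and 5.39-fold above the highest HEK293T library. In no HEK293T library did PGD come near the A549 level.

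RPIA, the isomerase that makes ribose 5-phosphate, lies at chr2:88991176-89050452 (hg19, plus strand). HEK293T gave 22.4 CPM with T12, 25.6 with T18 and 22.6 with T30, then 56.9 with T18V, 37.9 with T18VN and 40.0 with T18VNN. A549 gave 4.0 CPM from 6 reads, 5.58-fold lower than HEK293T T12 (95% interval 2.44 to 15.7). RPIA was the only one of the 9 genes past 2-fold in that direction, on few reads.

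RPE, the epimerase that makes xylulose 5-phosphate, lies at chr2:210867289-210886984 (hg19, plus strand) and overlaps KANSL1L. HEK293T ranged from 3.08 CPM (T18) to 17.1 CPM (T18V), with 15.6 CPM in T12, and A549 gave 33.4 CPM. The A549 library was 2.14-fold above HEK293T T12 (95% interval 1.42 to 3.22), from 50 and 51 reads. RPE came under 2-fold when libraries were scaled by TMM or by their totals, and with a pseudocount of 5 CPM (log2 of 0.90). The retrocopy RPEL1 held 25 reads in HEK293T T18, where RPE had 16, and 0 in the other 6 libraries, so reads of these near-identical copies may have been split there.

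TKT, the transketolase that moves 2-carbon units between sugars, lies at chr3:53259652-53290130 (hg19, minus strand). It gave 265 CPM with T12, 252 with T18 and 230.2 with T30, then 1066 with T18V, 449 with T18VN and 722 with T18VNN, and 1505 CPM in A549. The A549 library was 5.69-fold above HEK293T T12 (95% interval 5.25 to 6.16) but 1.41-fold above HEK293T T18V. For TKT the HEK293T T18V library thus came near the A549 T12 level. It is 1 library, so primer and library cannot be told apart, and A549 was not copied with T18V.

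TALDO1, the transaldolase that moves 3-carbon units, lies at chr11:747432-765024 (hg19, plus strand). HEK293T gave 262 CPM with T12, 217 with T18 and 278 with T30, then 214 with T18V, 196 with T18VN and 165 with T18VNN. A549 gave 168 CPM, 1.56-fold lower than HEK293T T12 (95% interval 1.35 to 1.80) and inside the HEK293T range. The enzymes of the nonoxidative branch were therefore apart: the ratio of TKT to TALDO1 reads was 1.01 in HEK293T T12 and 8.94 in A549, and ran from 0.827 (T30) to 4.99 (T18V) over the HEK293T primers.

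ME1, the cytosolic malic enzyme that turns malate into pyruvate with NADPH, lies at chr6:83920108-84140938 (hg19, minus strand). HEK293T gave 22.7 CPM with T12, 7.31 with T18 and 4.96 with T30, then 4.98 with T18V, 19.4 with T18VN and 3.06 with T18VNN, and A549 gave 98.1 CPM. The A549 library was 4.33-fold above HEK293T T12 (95% interval 3.25 to 5.81). T12 was the highest of the HEK293T libraries for ME1, so the ratio to any other primer was larger, and on the log2(CPM + 1) scale it was 3.79 against the HEK293T median in place of 2.07. For RPE, whose highest HEK293T library was T18V, the ratio on that scale was 1.81 against the HEK293T median in place of 1.05.

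IDH1, the cytosolic and peroxisomal NADP-dependent isocitrate dehydrogenase, lies at chr2:209100951-209119867 (hg19, minus strand). It gave 20.5 CPM with T12, 19.2 with T18 and 15.8 with T30, then 41.6 with T18V, 36.6 with T18VN and 36.4 with T18VNN, and 220.3 CPM in A549. The ratio to HEK293T T12 was 10.7 (95% interval 8.23 to 14.2), the highest of the 9 genes, and the ratio to the highest HEK293T library was 5.29. Its mitochondrial counterpart IDH2 stood the other way, at 271 CPM in HEK293T T12 and 148 CPM in A549.

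MTHFD2, a mitochondrial folate dehydrogenase and cyclohydrolase, lies at chr2:74425690-74442425 (hg19, plus strand). HEK293T gave 96.5 CPM with T12, 108 with T18 and 123 with T30, then 148 with T18V, 115 with T18VN and 165 with T18VNN, and A549 gave 98.1 CPM. The ratio to T12 was 1.02 (95% interval 0.830 to 1.24), and its log2 turned from 0.02 to -0.31 when libraries were scaled by their totals. GENCODE 29 names 7 MTHFD2 pseudogenes, and how reads shared with them were handled is not given in the sources used here.

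**Figure D2:**
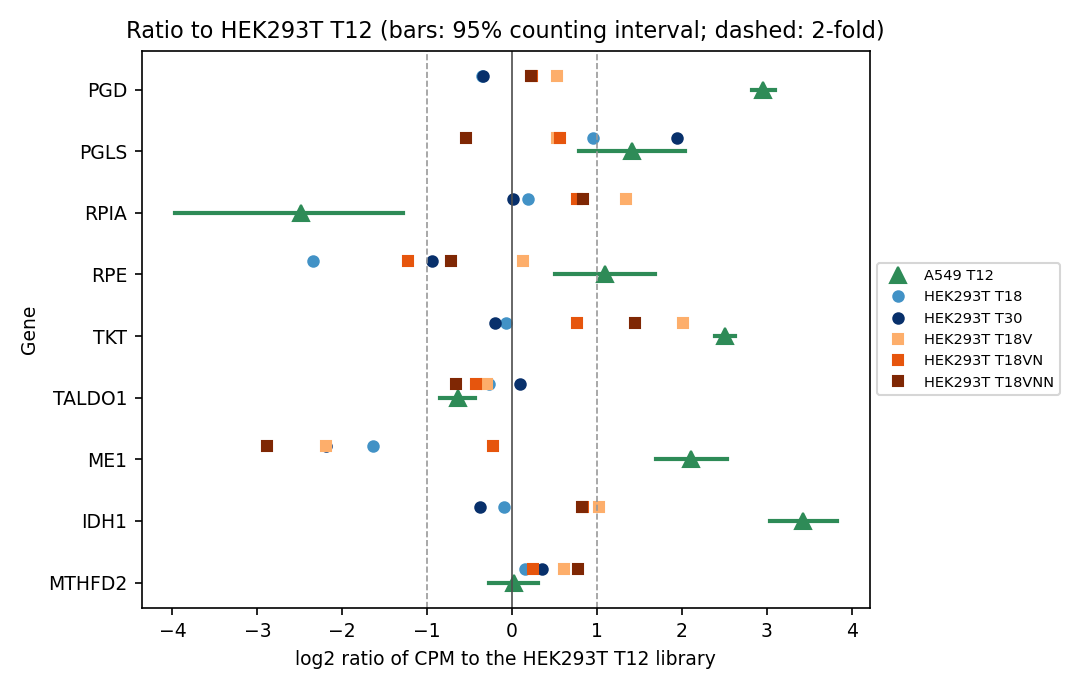
log2 ratio of CPM to the HEK293T T12 library for A549 (triangles, with 95% counting intervals) and for the other 5 HEK293T primers, with dashed lines at 2-fold. IDH1 and PGD stand far from every HEK293T primer in A549, while TKT in T18V comes close to its A549 value.

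Summed over the 9 genes, A549 gave 3568 CPM, or 0.357% of its gene reads, against 799 (T18) to 1828 CPM (T18V) in HEK293T, or 0.0799 to 0.183%. TKT and PGD together made up most of the A549 sum, with 42.2% and 39.5% of it. In HEK293T PGD held 14.3 to 20.1% of the sum and TALDO1 11.7 to 31.9%, whereas TALDO1 held 4.71% in A549. The share of TKT in HEK293T ran from 26.3 to 58.3%, so its share in A549 lay inside that range, while those of PGD and TALDO1 lay outside theirs.

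To set the genes against each other, levels were also taken per length of transcript. By the authors' deposited FPKM the HEK293T medians ordered the genes as TKT (40.5 FPKM), TALDO1 (36.6), PGD (19.2), MTHFD2 (12.4), PGLS (4.90), RPIA (4.32), IDH1 (2.93), RPE (0.678) and ME1 (0.477). The ranges over the 6 HEK293T libraries overlapped between every pair of neighbours in that order. These ranges pool the libraries. Within every one of the 6, PGD held rank 3 and MTHFD2 rank 4. FPKM divides by the library total, of which genes took a varying share. By medians of CPM per kilobase TALDO1 (174) came before TKT (163) and the rest kept their places. IDH1 (6.60 to 17.4) and RPE (0.926 to 5.14) were then the only neighbours whose ranges were separate. Library by library, TALDO1 was above TKT with T12 (211 against 121), T18 and T30. TKT was above TALDO1 with T18V (487 against 172), T18VN and T18VNN. The deposited FPKM split in the same way. In A549 the order was TKT at 688 CPM per kilobase, PGD at 602, TALDO1 at 135, IDH1 at 92.1, MTHFD2 at 44.8, PGLS at 32.3, ME1 at 27.9, RPE at 10.0 and RPIA at 2.18. PGD thus stood close to TKT in A549, and RPIA moved to the last place. The order of the medians also depends on the division by length, and that of TKT and TALDO1 differed between anchored and unanchored libraries. In plain CPM the HEK293T median of TKT (357) was above that of TALDO1 (216). Those of RPIA (31.8) and IDH1 (28.5) were then above that of PGLS (18.3). Where reads lie along the transcripts was not examined, so levels per length are a rough guide across genes.

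**Figure D3:**
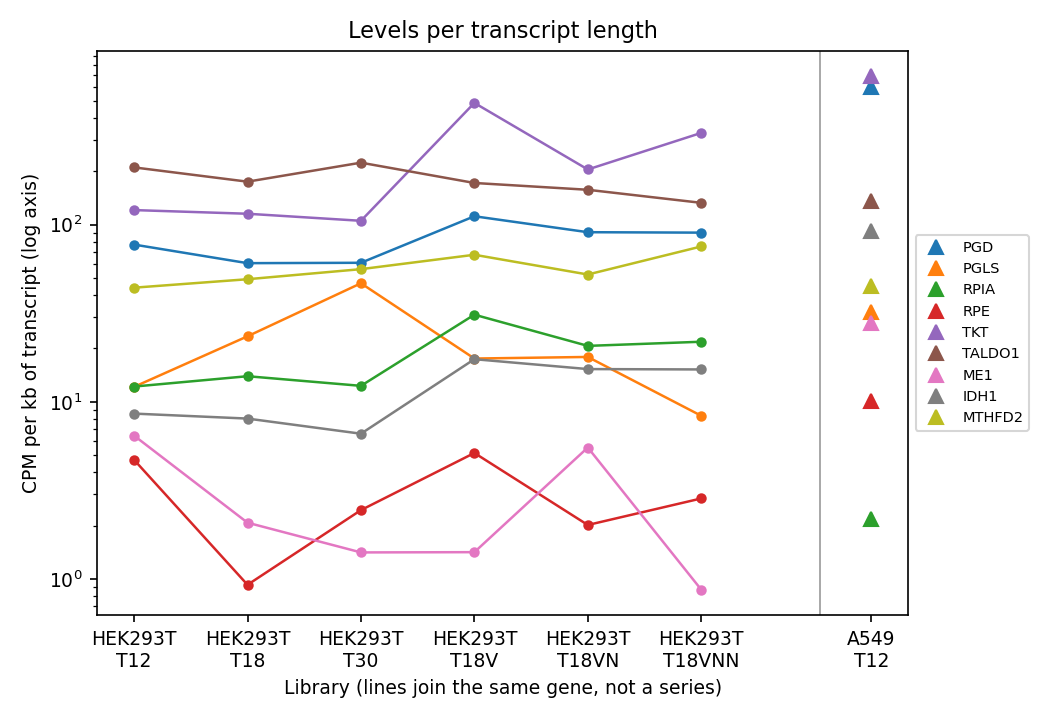
Level of each gene in CPM per kilobase of transcript on a log axis, over the 6 HEK293T primers (joined points, which have no order in time or dose) and in A549 (triangles). TALDO1 and TKT lead in HEK293T and TKT and PGD in A549, where RPIA is lowest at 2.18.

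The question of the primer comparison is whether the anchor changes how these transcripts are counted. The 3 anchored and 3 unanchored HEK293T libraries were set against each other with edgeR's quasi-likelihood test, primers standing in for replicates. With 1 library per primer, differences of primer, culture and library preparation cannot be told apart in the spread within a class. None of the 9 genes passed an adjusted p of 0.05, against 147 of 10885 genes (1.35%), 0.781% being higher and 0.57% lower with the anchor. TKT and IDH1 were under an unadjusted p of 0.05 by edgeR, as were 15.6% of all genes, and DESeq2 called 1 of the 9, TKT, against 5.59% of all genes. In 5 of the 9 the anchored and unanchored values did not overlap, 4 of them higher with the anchor (TKT, IDH1, RPIA and PGD) and TALDO1 lower. Over all genes tested 16.8% were higher without overlap and 6.80% lower, 23.6% in all. The biological coefficient of variation, as edgeR names the spread between libraries of a class, was 0.484.

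Means of TKT were 249 ± 17.4 CPM (SD, n = 3 primers) over the unanchored libraries and 746 ± 309 CPM (SD, n = 3 primers) over the anchored ones. By edgeR this was 1.41 on the log2 scale (SE 0.34), with an adjusted p of 0.0652. Over 12 alternatives the adjusted p of TKT ran from 0.00302 to 0.373, and 5 of them called it. Among the anchored primers its level differed widely, from 449 CPM with T18VN to 1066 CPM with T18V, while the unanchored ones lay within 230.2 to 265 CPM. With the same 18 T, T18V gave 4.23-fold the TKT level of T18.

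IDH1 averaged 18.5 ± 2.44 CPM without and 38.2 ± 2.95 CPM with an anchor (SD, n = 3 each), and its edgeR log2 fold change was 0.87 (SE 0.37, adjusted p = 0.288). RPIA averaged 23.5 ± 1.80 and 45.0 ± 10.4 CPM (SD, n = 3 each), and edgeR put it at 0.76 in log2 (SE 0.37, adjusted p = 0.347). PGD averaged 155 ± 22.2 and 228 ± 28.6 CPM (SD, n = 3 each), and edgeR put it at 0.39 in log2 (SE 0.28, adjusted p = 0.573). For these 3 genes every anchored library stood above every unanchored one, yet the differences did not pass the test over all genes.

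TALDO1 averaged 253 ± 31.5 CPM without and 192 ± 24.6 CPM with an anchor (SD, n = 3 each), and its edgeR log2 fold change was -0.57 (SE 0.29, adjusted p = 0.372). PGLS, at 28.4 ± 18.2 and 15.1 ± 5.61 CPM (SD, n = 3 each), stood at -1.09 in log2 by edgeR (SE 0.57, adjusted p = 0.39) with overlapping values, and at -0.45 without the T30 library. MTHFD2 (0.21), RPE (0.15) and ME1 (-0.49) had adjusted p of 0.808, 0.948 and 0.832 by edgeR, and their groups overlapped. The standard errors of RPE (0.70) and ME1 (0.80) exceeded the size of their changes.

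**Figure D4:**
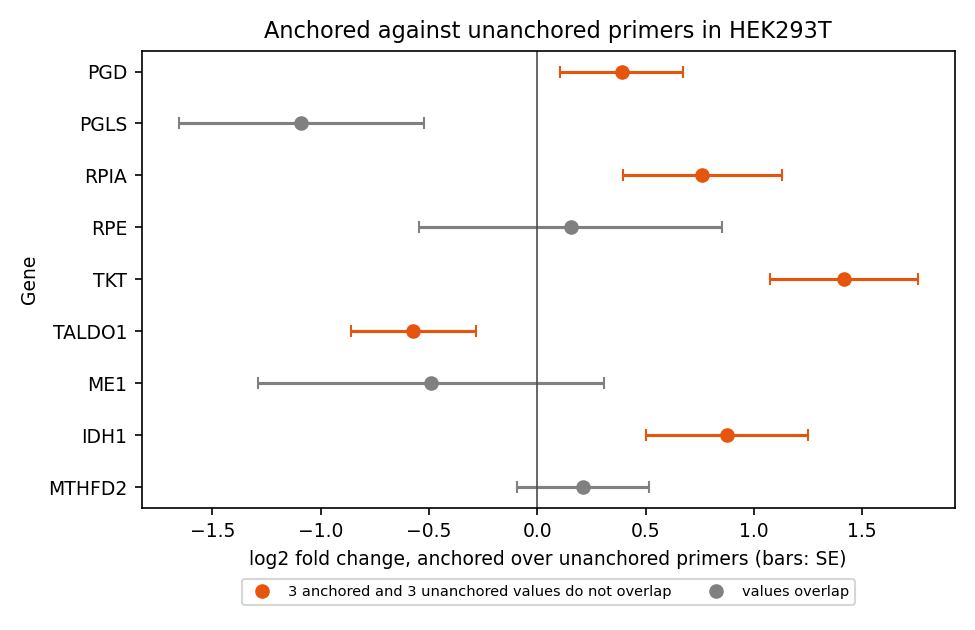
edgeR log2 fold change of each gene, 3 anchored over 3 unanchored HEK293T libraries, with bars of 1 SE. The orange points, TKT, IDH1, RPIA, PGD and TALDO1, are genes whose values do not overlap between the classes, and none passed an adjusted p of 0.05.

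Between single HEK293T primers the 9 genes fell into steady and variable ones. The ratio of the highest to the lowest HEK293T library was 1.69 for TALDO1, 1.71 for MTHFD2 and 1.84 for PGD, then 2.55 for RPIA and 2.64 for IDH1. It reached 4.63 for TKT, 5.55 for RPE, 5.60 for PGLS and 7.41 for ME1. Over 7799 genes with at least 10 CPM on average and reads in all 6 libraries the median ratio was 3.03, with quartiles of 2.2 and 4.64. ME1, RPE and PGLS are among the genes with few reads here, ME1 with 11 in T30 and in T18VNN.

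Against T12, which is also the reference of the cell line comparison, ME1 was at least 2-fold lower with T18, T30, T18V and T18VNN, but not with T18VN. RPE was lower with T18 and T18VN, PGLS higher with T30, TKT higher with T18V and T18VNN, and RPIA higher with T18V. The other 4 genes stayed under 2-fold in CPM + 1 with every primer. At that threshold 29.1% (T18), 36.9% (T30), 40.0% (T18V), 36.9% (T18VN) and 39.1% (T18VNN) of all genes differed from T12, against 1 to 3 of the 9.

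TKT has a second deposited entry that ends 929 bases further 3′, at position 53258723. In A549 that entry held 126 reads against 2254 of the entry used, or 5.59% (95% Wilson interval 4.72 to 6.62). In HEK293T it held 2 to 44 reads, 0.392 to 1.91%, and the highest upper bound was 2.80%. Relative to the entry used, the longer entry thus held more reads in A549 than in any HEK293T library beyond counting error. There is no replicate to judge it by. The interval treats the 126 reads as a part of the 2254, which was not checked. Which bases these reads cover is not known, so use of a longer 3′ end was not tested. Counted on that entry alone, the log2 ratio of TKT between A549 and HEK293T T12 was 4.28 in place of 2.50. For the other 8 genes the choice of entry made no such difference, RPE having 14 entries.

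The genes most like each of the 9 were sought among 8323 genes of at least 10 CPM on average, by the root mean square difference of centred log2 levels over the 7 libraries. PGD and IDH1 shared HSPB1 (0.15 and 0.17) and ZFAND5 (0.18 and 0.19) among their 3 closest genes, and were the closest pair within the set (0.23). TKT was closest to PSME2 (0.24), DDOST (0.25) and S100A10 (0.29), and TALDO1 to B4GALT7 (0.11), PRRC2B (0.12) and RBM26 (0.12). RPIA was closest to ELAVL1 (0.16) and farthest within the set from ME1 (2.43). MTHFD2 was closest to DYRK4 and RPL8 (0.09 each), PGLS to ZNF576 (0.26), RPE to CCDC90B (0.28) and ME1 to ST6GALNAC4 (0.37). The measure is weighted by the A549 library wherever that library stands apart.

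Other genes of the pathway were mixed in direction. Of 8 further pentose phosphate genes with enough reads, 2 were at least 2-fold higher in A549 and 4 lower, with a median log2 ratio of -1.22. H6PD, which starts an oxidative branch inside the endoplasmic reticulum, was 5.00-fold higher (34.3 to 171.5 CPM), and 2.24-fold above the highest HEK293T library. The ribokinase RBKS was 12-fold higher (95% interval 4.07 to 47.8) on 4 reads in HEK293T T12, and 2.2-fold above the highest HEK293T library. The phosphoglucomutase PGM1 was 4.27-fold lower (762 to 178 CPM). SHPK, the sedoheptulose kinase, had 30 reads in HEK293T T12 and 0 in A549. It was at least 4.59-fold lower by a floor of 3 reads per library. In HEK293T T18V, however, SHPK gave 1.42 CPM, which is under the A549 floor of 2.00 CPM. The deoxyribose-phosphate aldolase DERA, with 2 reads in A549, was 8.49-fold lower (95% interval 2.19 to 72.7) but 1.33-fold below the lowest HEK293T library. The transketolase-like genes TKTL1 and TKTL2 were at 0 reads in all 7 libraries.

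A further list held other enzymes that form NADPH and MTHFD1L, a mitochondrial formate-tetrahydrofolate ligase of the same folate route, which forms none itself. Among its 6 genes with enough reads none was 2-fold higher and 2 were lower: MTHFD1L was 5.48-fold lower (95% interval 3.47 to 9.14) and the cytosolic dehydrogenase MTHFD1 2.23-fold lower (1.75 to 2.86). Their median log2 ratio was -0.90. Of 12 genes of serine and folate metabolism 3 were higher, MTHFS and the carrier SLC25A32 among them, and 4 lower. PHGDH, which starts serine synthesis, was 6.77-fold lower, ATIC of purine synthesis 4.62-fold (2.68-fold below the lowest HEK293T library) and the mitochondrial serine hydroxymethyltransferase SHMT2 4.27-fold. MTHFD2, at a ratio of 1.02, thus stood apart from the other mitochondrial folate enzymes named here, MTHFD1L and SHMT2.

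Of 15 NAD kinases and users of NADPH 3 were higher and 4 lower. Glutathione reductase GSR was 22.6-fold higher (95% interval 16.0 to 33.0) and thioredoxin reductase TXNRD1 17.8-fold higher (13.5 to 24.1), and the mitochondrial NAD kinase NADK2 was 2.18-fold higher. Against the highest HEK293T library these ratios were 14, 5.37 and 1.96. On the other side the ribonucleotide reductase subunit RRM2 was 22.8-fold lower (95% interval 12.6 to 45.9) and NADK 2.50-fold lower, though NADK was 1.05-fold below the lowest HEK293T library. GSR and TXNRD1, which use NADPH to restore glutathione and thioredoxin, were thus high in A549, where RRM2 of deoxynucleotide synthesis was low. The subunit RRM1 of the same reductase stayed under 2-fold, at 1.42-fold lower (95% interval 1.10 to 1.87). Both subunits lay below the HEK293T range.

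Glycolysis genes leaned the same way as the 9: 11 of 21 were higher and 2 lower, with a median log2 ratio of 1.17. The glucose transporters SLC2A3 (17.1-fold) and SLC2A1 (6.14-fold) and the enolase ENO2 (10.9-fold) led, and stood 5.82, 3.96 and 4.30-fold above the highest HEK293T library. By contrast PGAM1 was 2.55-fold lower (1.64-fold below the lowest HEK293T library) and HK2, with 3 reads in A549, 16.1-fold lower (95% interval 5.35 to 79.1). Of 16 citrate and malate enzymes 5 were higher, led by ACO1 (5.07-fold), PC (4.84-fold, but 1.5-fold above the highest HEK293T library) and OGDH (2.26-fold), and 3 were lower. Of these GOT1 was 6.62-fold lower (2.85-fold below the lowest HEK293T library) and SLC25A11 3.01-fold (1.95-fold). ACO1, the cytosolic aconitase, acts just before IDH1 and was higher together with it.

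Known NRF2 targets had the highest median of the pathway lists, a log2 ratio of 4.04, under that of the A549 and lung epithelium markers (4.74). Of the 20 with enough reads 19 were at least 2-fold higher in A549 and none lower, and all 20 lay above the HEK293T range. Of 21 listed, OSGIN1 had too few reads, at 0 in A549 and 1.67 CPM in HEK293T T18VNN. NQO1, with 1313 reads in A549 and none in HEK293T T12, was at least 954-fold higher by the same floor, and AKR1C2 and AKR1B10, which have near-identical relatives, were at least 1334 and 1710-fold higher. Against the highest HEK293T library NQO1 was 103-fold higher (T18V, 8.54 CPM) and AKR1C2 453-fold higher (T30, 2.71 CPM), while AKR1B10 was at 0 in all 6. The lowest of those past 2-fold were SRXN1 (2.09-fold), HMOX1 (3.68-fold) and the ferritin chain FTL (4.49-fold). GSR and TXNRD1 are in this list and in that of NADPH users. Of the 5 members of the set named above as NRF2 targets, PGD, TKT, ME1 and IDH1 were 4.33 to 10.7-fold higher and TALDO1 was 1.56-fold lower. The part of NRF2 in these levels was not tested.

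**Figure D5:**
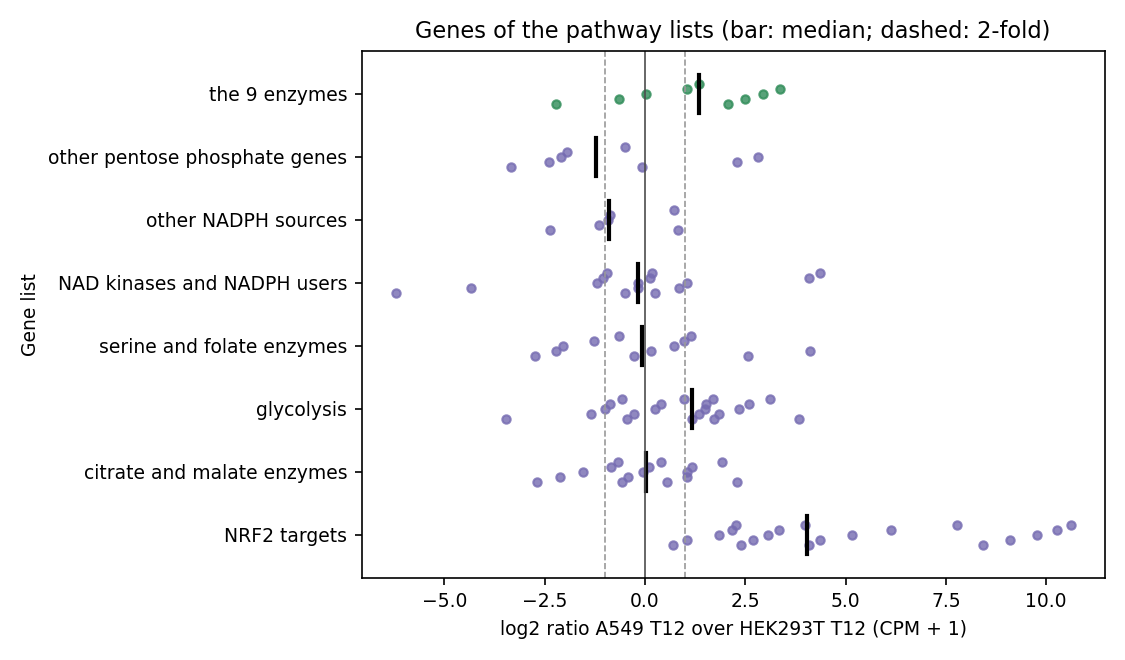
log2 ratio of A549 T12 over HEK293T T12 (CPM + 1) for the genes of each list with 20 or more reads in either library, each point 1 gene and dashed lines at 2-fold. The 9 enzymes have a median of 1.34, between glycolysis (1.17) and the NRF2 targets (4.04).

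Scaling shifted these counts. With TMM the median log2 ratio of all genes became -0.24 and with library totals -0.26, and the 9 enzymes had 5 and 4 higher genes in place of 6, RPE being lost in both and PGLS with library totals, and RPIA stayed lower in both. Glycolysis had 10 and 8 higher genes and 4 lower ones under both scalings, in place of 11 and 2. The NRF2 targets had 18 higher genes under TMM.

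Between anchored and unanchored HEK293T primers edgeR called 3 genes of these lists. GART, of purine synthesis, rose by 2.13 on the log2 scale (SE 0.37, adjusted p = 0.0195), and aldolase ALDOA rose by 1.57 (SE 0.31, adjusted p = 0.0387). FTL fell by 2.29 (SE 0.33, adjusted p = 0.00765). None of the further pentose phosphate genes and none of the list of other NADPH-forming enzymes was called.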

How the data were processed

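The authors deposited raw counts of reads for each RefSeq transcript of 7 libraries. The submitters' processing notes name FastQC 0.11.8, cutadapt 2.10, Trimmomatic 0.39, HISAT2 2.2.1, SAMtools and hg19. Counting rules, strand and reads with several matches are not given in the sources used here. The same deposited tables hold a signal scaled to the library total, used only to recover library totals, and FPKM, which divides it by transcript length. Of 61177 entries 60127 (98.3%) matched a RefSeq symbol by accession, and the entry with most reads per gene was kept. Of 26621 genes 8221 overlap another gene. Entry positions are those of the deposited files (hg19), and promoters are RefSeq's (GRCh38.p14), with no conversion between builds. Anchored and unanchored libraries were fitted over all genes with edgeR 4.0.16 in R 4.3.3 (filterByExpr, TMM, quasi-likelihood F-test, Benjamini-Hochberg at 0.05). The fit was tested on simulated counts with less spread than these libraries and larger changes than those of the 9 enzymes. That run does not show how the fit performs at the spread and changes seen here. DESeq2 1.42.0, other scalings and filters, other entries and leaving out each library were alternatives. A549 was compared with HEK293T T12 by log2(CPM + 1), 2-fold and at least 20 reads in the higher library. Intervals and floors hold for counting error alone, because without molecular identifiers PCR copies of 1 molecule are counted apart. The 9 enzymes and the gene lists were chosen with earlier results of these data known. All 9 enzymes were named, with up to 3 highest and 3 lowest genes past 2-fold and all anchor calls of each list, and the 3 closest genes of each enzyme, of which the closest are printed; some list genes that this rule picks are not reported here. IDH2, TKTL1, TKTL2, RPEL1 and MTHFD2L, relatives of the enzymes, were added after their values were seen, as were RRM1 and OSGIN1.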

Additional observations from a re-analysis of the deposited data

How the results depend on the processing

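The number of genes called between anchored and unanchored primers moved with the processing. edgeR called 147 genes (57.8% higher), against 608 with DESeq2 (45.9% higher), 556 without the low-count filter (50.9%), 210 with scaling to gene reads without TMM (72.9%) and 2256 with scaling to library totals (97.7%), which moved the median of all genes by 1.08 on the log2 scale. Leaving out 1 library gave 46 (without T18VNN) to 111 (without T18VN), of which 35.2% (without T30) to 54.0% (without T18V) were higher. Of the 9 enzymes 0 were called, against 1 with DESeq2, without TMM or without the filter (TKT each time) and 5 with library totals (PGD, TKT, RPIA, IDH1 and MTHFD2), and leaving out 1 library gave 0 to 1 (TKT without T18VN). Directions turned for PGLS (0.17), TALDO1 (0.57) and ME1 (0.47) with library totals, for ME1 without T12 (0.37) and for RPE without T18 (-0.27) or T18V (-0.33). Leaving out 1 library gave RPE -0.33 to 0.81 (highest without T12) and ME1 -1.68 (without T18VN) to 0.37. The cause was not tested. DESeq2 gave no adjusted p for RPE and ME1. For A549 against HEK293T T12 the enzymes past 2-fold numbered 4 to 6 higher and 1 lower under every alternative run. No paired analysis was possible because each primer and cell line has 1 library with gene counts, and those of HEK293T T12 and A549 T12 bear different replicate numbers. Depth limits RPIA (6 reads in A549) and ME1 (11 reads in T30 and T18VNN) most.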
